A study of Mus musculus with 8 samples.

Results

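The lecticans, the tenascins of the brain and the link proteins of perineuronal nets were followed here as 9 genes of the mouse primary visual cortex (V1): the lecticans Vcan (versican), Acan (aggrecan), Bcan (brevican) and Ncan (neurocan), the tenascins Tnc (tenascin-C) and Tnr (tenascin-R), and the link proteins Hapln1, Hapln2 and Hapln4. The genes were chosen by family and found by symbol; all 9 were present among 26711 features. Their levels are given as CPM, the unique molecular identifiers (UMIs) of a gene scaled by all UMIs of the same library and cell type. A nucleus in which a gene is transcribed more and a larger share of nuclei that transcribe it cannot be told apart from such sums.

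Single-nucleus RNA-seq was performed on V1 at P21 in GR fl/fl mice, in which both alleles of Nr3c1, the gene of the glucocorticoid receptor (GR), are floxed so that Cre can delete part of them. At birth, mice received an AAV2/5 vector. In GR-KO the GfaABC1D promoter drove Cre together with EGFP-CAAX, a fluorescent protein directed to membranes, followed by 4x6T and WPRE elements, and in GR-Con ΔCre, a Cre without activity, took the place of Cre, so that the controls carried the floxed alleles and a vector too. GfaABC1D is an astrocyte promoter, so deletion was directed to astrocytes. The study's methods name a sort for DRAQ5-positive, GFP-negative events, whereas the labels name DRAQ5 for the nuclei, and whether the Astro values depend on this gate was not tested. Rearing was normal (NR) or in darkness (DR), and each of the 4 groups held 2 libraries, 1 from a male and 1 from a female according to the names in the cell table. The group and the sex serve as a name for each library, because the replicate numbers of the labels could not be matched to these names.

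The libraries held 9517 to 15161 nuclei each (102330 in all), with 168632129 to 288774016 UMIs per library and medians of 14861 to 29223 UMIs per nucleus. The highest medians were those of the NR GR-KO female (29223) and male (22827.5), and no other library exceeded 20161. In Astro the medians were 12123.5 and 8662 UMIs in the NR GR-KO female and male, and 4889 to 7199 in the other groups. Depth thus moved with genotype in NR, and its part in the results was not tested. The deposited cell types numbered 20, and 52 of 55 marker genes had their highest CPM in the type they mark. Pairs of libraries shared at most 66 cell barcodes. Of the types, 15 had at least 10 nuclei in every library and their levels are compared below. The others (ChC, Endo, Micro, SMC-Peri and VLMC) were too sparse in at least 1 library, and entered a comparison only where each of its own libraries held 10. The libraries differed in composition. Micro held 2 to 4 nuclei in the NR GR-Con male, NR GR-KO male and DR GR-Con female libraries, and 573 to 948 in each of the others. The DR GR-Con female also held only 5 Endo, 3 VLMC and 1 SMC-Peri nuclei. In the Astro type, Cre was found with 43 to 86 UMIs in each GR-KO library and with 0 UMIs in each GR-Con library. Nr3c1 itself stood at 268 to 284 CPM in the GR-KO and 207 to 263 CPM in the GR-Con libraries of that type, so its level was not lower with Cre. Counts of tags over a whole gene do not check a deletion whose exons are not given in the sources used here.

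Lecticans are chondroitin sulfate proteoglycans that bind the glycan hyaluronan through their N-terminal domain and tenascins through their C-terminal domain, and link proteins fasten the lectican to the hyaluronan. Perineuronal nets are condensed forms of this matrix around certain neurons, above all parvalbumin interneurons, and they form during the critical period of visual cortex and are delayed by dark rearing. Aggrecan, tenascin-R, Hapln1 and Hapln4 are known components of these nets, brevican and neurocan belong to the looser matrix too, versican and tenascin-C are best known from early development, and Hapln2 lies at nodes of Ranvier in white matter.

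The genes lie partly side by side. On GRCm38 (GENCODE vM21), Vcan occupies chr13:89655312-89742509 on the minus strand, and Hapln1 ends 43659 bases before it on the plus strand at chr13:89539796-89611652. Bcan (chr3:87987531-88000230, minus strand) is followed by Hapln2 (chr3:88021750-88027583, minus strand) at a distance of 21519 bases. Hapln4 (chr8:70083457-70090862, plus strand) and Ncan (chr8:70093085-70120873, minus strand) are separated by 2222 bases. Acan (chr7:79053483-79115099, plus strand), Tnc (chr4:63959785-64047015, minus strand) and Tnr (chr1:159523769-159931729, plus strand) have no other member beside them. Across the 15 cell types, Pearson's r of log2 levels was 0.49 for Hapln1 and Vcan, 0.34 for Bcan and Hapln2 and −0.12 for Hapln4 and Ncan, given as a description, since cell types share libraries and depth.

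The 250 bases before the start of transcription are printed for Vcan and Tnc, the 2 members that differed between genotypes in astrocytes, and for Bcan, which has its highest level in astrocytes and did not pass the test there. They are RefSeq sequences on GRCm38.p6, 5′ to 3′ on the strand of the gene, at chr13:89742513-89742762 (Vcan), chr4:64047016-64047265 (Tnc, the outermost of 2 RefSeq starts) and chr3:88000357-88000606 (Bcan). Capitals mark AGAACA, the half-site bound by the glucocorticoid receptor, on either strand.
Vcan: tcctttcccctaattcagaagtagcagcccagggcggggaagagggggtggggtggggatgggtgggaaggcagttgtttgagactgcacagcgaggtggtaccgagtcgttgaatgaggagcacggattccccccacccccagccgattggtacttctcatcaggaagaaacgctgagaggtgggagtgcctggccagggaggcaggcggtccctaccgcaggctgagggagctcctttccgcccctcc
Tnc: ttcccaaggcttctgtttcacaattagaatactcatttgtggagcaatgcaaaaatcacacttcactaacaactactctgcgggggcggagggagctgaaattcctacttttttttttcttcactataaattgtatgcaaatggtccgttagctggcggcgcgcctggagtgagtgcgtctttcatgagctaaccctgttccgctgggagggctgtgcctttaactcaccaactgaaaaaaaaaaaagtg
Bcan: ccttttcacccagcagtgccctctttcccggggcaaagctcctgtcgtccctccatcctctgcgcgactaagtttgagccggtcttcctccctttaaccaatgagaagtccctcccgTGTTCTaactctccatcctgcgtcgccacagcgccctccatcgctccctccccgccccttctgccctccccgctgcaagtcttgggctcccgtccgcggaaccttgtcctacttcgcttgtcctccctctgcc
AGAACA was found once in the Bcan window and not in the others, and 16.1% of 32851 promoter windows of this length hold it. A pair of such half-sites facing each other with 3 bases between them was found in no member and in 3 of all windows. TTGGC, the half-site of nuclear factor I, was searched on both strands as well and was found once in the windows of Acan, Ncan, Hapln2 and the inner Tnc start, against 41.5% of all windows. Hapln4 had no entry among these promoters. A match is a matter of letters only, and enhancers further away were not searched.

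Each member had its own distribution over cell types, shown in the heat map of mean levels. Vcan, the lectican of progenitors and of developing tissue, was highest in OPC, the oligodendrocyte progenitor cells, at 1174 ± 120 CPM (SD, n = 8 libraries). Oligo nuclei followed with 185 ± 49.4 CPM and Lamp5 interneurons with 179 ± 34.6 CPM, and these neighbours did not differ beyond their spread. Astro nuclei stood at 69.4 ± 38.7 CPM, below Lamp5 in 8 of 8 libraries. Among excitatory types Vcan was highest in L5PT at 31.0 CPM and L6CT at 22.3 CPM. Neighbours in the order of mean level were compared for every member by an exact two-sided sign-flip test over the 8 libraries, whose smallest possible p is 0.0078. Of 126 neighbouring pairs, 29 differed at an adjusted p of 0.0339 (exact permutation of signs, Benjamini-Hochberg over all pairs), each with the same order in 8 of 8 libraries.

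**Figure D1:**
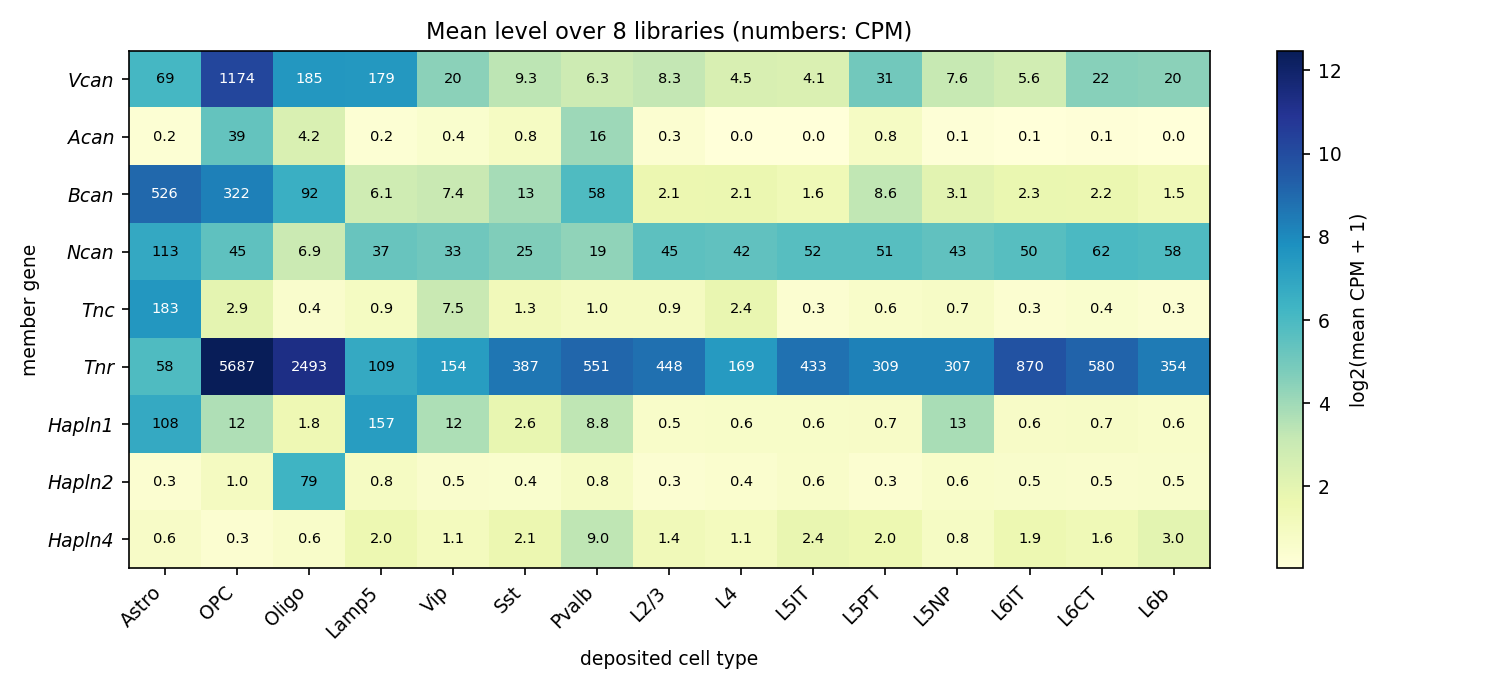
Mean level of each member (rows) in the 15 cell types with at least 10 nuclei in every library (columns), coloured by log2(CPM + 1) and printed as CPM, over 8 libraries. Tnc stands out in Astro (183 CPM), Hapln2 in Oligo (79.5 CPM), and Vcan, Acan and Tnr are highest in OPC.

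Acan, the core proteoglycan of perineuronal nets, was at 39.3 ± 8.18 CPM in OPC and at 15.7 ± 2.79 CPM in Pvalb interneurons, followed by Oligo at 4.21 ± 1.48 CPM and Sst at 0.842 CPM. Each of these 3 steps held in 8 of 8 libraries. Of the Acan UMIs, by contrast, Pvalb nuclei held 48.6 ± 7.54% and OPC nuclei 28.8 ± 3.68%, with 3905 Pvalb nuclei at a median of 18926 UMIs and 2848 OPC nuclei at a median of 6229 UMIs. Bcan, a lectican secreted by glia, was at 526 ± 51.5 CPM in Astro, 322 ± 32.1 CPM in OPC, 92.1 ± 21.9 CPM in Oligo and 58.2 ± 8.86 CPM in Pvalb. Its order Astro, OPC, Oligo held in 8 of 8 libraries, while Oligo and Pvalb did not differ beyond their spread. Pvalb was in turn above Sst (13.4 CPM) in 8 of 8 libraries, so the parvalbumin type led the neurons for both Acan and Bcan. Ncan was the broadest lectican, with 113 ± 19.8 CPM in Astro, 61.8 ± 1.32 CPM in L6CT and 58.5 CPM in L6b. It was lowest in Oligo at 6.90 CPM, and among neurons it fell in steps from Vip (32.6 CPM) to Sst (24.6 CPM) and Pvalb (19.0 CPM), each in 8 of 8 libraries. Excitatory types together held 84.5 ± 2.97% of the Ncan UMIs, a value not set against their share of all UMIs.

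The tenascins were distributed in opposite ways. Tnc, a hexameric glycoprotein of developing and reactive glia, was at 183 ± 97.5 CPM in Astro, at 7.53 CPM in Vip and at 2.94 CPM in OPC, both steps in 8 of 8 libraries. Astro nuclei held 78.9 ± 12.2% of its UMIs, and the spread of its level over libraries (66.4 to 328 CPM) was wide. Tnr, which cross-links lecticans in nets, was at 5687 ± 512 CPM in OPC, 2493 ± 784 CPM in Oligo, 870 ± 82.0 CPM in L6IT and 580 ± 96.9 CPM in L6CT, all 3 steps in 8 of 8 libraries. Pvalb nuclei stood at 551 ± 14.8 CPM, not distinguishable from L6CT, and above L2/3 at 448 CPM. Of the 15 types, Astro had the lowest level at 58.4 CPM.

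Among the link proteins, Hapln1, which stabilizes the bond of lecticans to hyaluronan, was at 157 ± 28.3 CPM in Lamp5 interneurons and at 108 ± 25.2 CPM in Astro, and this pair did not differ beyond its spread. All other types were at or below 12.7 CPM (L5NP). Hapln2 was at 79.5 ± 30.4 CPM in Oligo and at 0.952 CPM in OPC, the next type, and Oligo held 82.6 ± 9.34% of its UMIs. Hapln4, the link protein known from nets around fast-spiking neurons, was at 9.02 ± 1.53 CPM in Pvalb against 3.02 ± 0.917 CPM in L6b. Nevertheless excitatory types together held 69.7 ± 2.63% of the Hapln4 UMIs and Pvalb 21.05 ± 2.66%, as the bars of UMI shares show. Such shares also follow the number and depth of nuclei, with 21913 L2/3 nuclei at a median of 21863 UMIs against 3905 Pvalb nuclei at 18926. They were not set against the share of all UMIs, and do not show an enrichment in excitatory types.

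**Figure D2:**
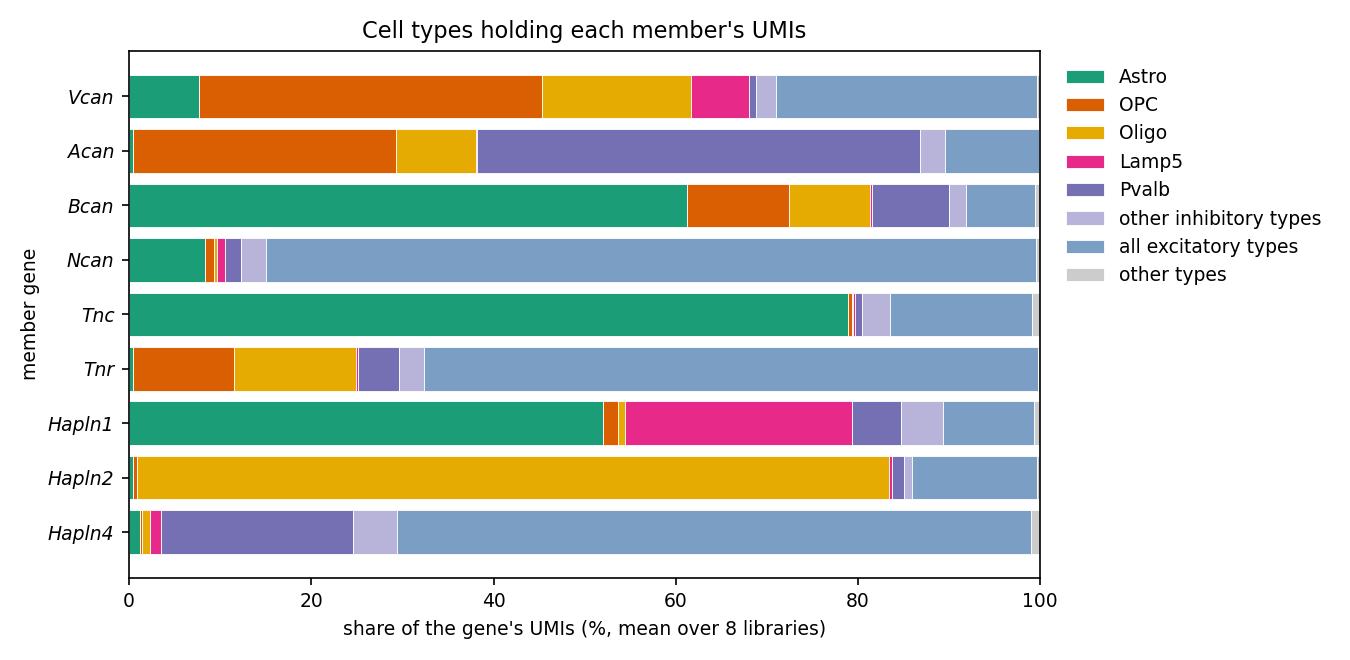
Share of each member's UMIs (horizontal axis, %, mean over 8 libraries) held by the deposited cell types (colours). Astro holds most of Tnc, Bcan and Hapln1, Oligo most of Hapln2, and the excitatory types most of Ncan, Tnr and Hapln4. The shares also follow the number and depth of nuclei, and the share of all UMIs held by each type is not drawn beside them.

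Depth differs between types (a median of 6107 UMIs in Astro and 18926 in Pvalb), so nuclei were also thinned to 2000 UMIs each, which left out 692 nuclei. At that depth, a Tnr UMI was found in 99.9% of OPC and 29.1% of Oligo nuclei, and a Vcan UMI in 84.5% of OPC, 25.2% of Lamp5, 17.8% of Oligo and 10.9% of Astro nuclei. A Bcan UMI was found in 63.5% of Astro nuclei, a Tnc UMI in 21.3% of Astro and 0.10% of L6CT nuclei, and a Hapln2 UMI in 12.8% of Oligo nuclei. The share did not follow the level everywhere: Vcan had like levels in Oligo and Lamp5 but was found in a smaller share of Oligo nuclei. The type with the highest level stayed the same for 9 of 9 members after thinning and after scaling with TMM factors. Without thinning, a Tnc UMI was found in 37.9% of Astro and 0.694% of L6CT nuclei, and a Vcan UMI in 25.7% of Astro nuclei.

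The Oligo type was split by Tnr. Of 5402 Oligo nuclei thinned to 2000 UMIs, 3852 (71.3%) had no Tnr UMI, 199 (3.68%) had 1 to 4 and 1351 (25.0%) had 5 or more, so few nuclei lay between the extremes. In OPC, 94.1% of nuclei had 5 or more, and in Astro 0.201%. The limits were chosen after seeing the data, and the classes are ranges of Tnr, not cell types. The Oligo nuclei with 5 or more Tnr UMIs were also high in Vcan (794 CPM against 6.84 CPM in those with none), Bcan (381 against 6.38 CPM) and Acan (18.3 against 0.101 CPM), and low in Hapln2 (3.30 against 106 CPM). Gpr17, a receptor of cells on the way from progenitor to oligodendrocyte, stood at 172 against 12.2 CPM, and Pdgfra, the receptor that defines OPC, at 27.5 against 1.70 CPM, far below the 604 CPM of OPC nuclei in the same Tnr range. Olig1, a transcription factor of the lineage, stood the other way, at 46.3 against 85.3 CPM. Within the Oligo type, Vcan, Bcan and Acan were thus high in the nuclei chosen for Tnr, and Hapln2 in those without it.

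By a fixed rule, the genes whose mean log2 level over the 15 types had the highest Pearson's r with a member were listed among 11743 genes. The closest were Has2 for Vcan (r = 0.91), Gpnmb for Acan (0.94), Tab1 for Bcan (0.98), Adgrl1 for Ncan (0.96), 8030451A03Rik for Tnc (0.98), Inava for Tnr (0.87), Ddr2 for Hapln1 (0.94), Gm26747 for Hapln2 (1.00) and Dffa for Hapln4 (0.91). Has2 makes hyaluronan, the glycan that lecticans bind. Among pairs of members the highest r were 0.69 for Bcan with Acan and for Tnr with Acan, and the lowest was −0.78 for Ncan with Hapln2. These are 15 points from the same libraries, and none of the 27 genes listed (3 per member) was among the 3 closest by Spearman's rho.

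The first comparison asked what the loss of GR in astrocytes changed, GR-KO against GR-Con. Counts summed per library and cell type were fitted with edgeR, and every adjusted p below is from its likelihood ratio test with Benjamini-Hochberg adjustment over all genes of the cell type, with a threshold of 0.05. Of the pairs of member and cell type that passed the filter on low counts, 3 of 104 were called in NR (2 higher, 1 lower in GR-KO), 1 of 91 in DR and 2 of 100 over both rearings. Over all genes and types, 0.804%, 0.513% and 0.4% of tests were called in these comparisons. All but 1 of the calls were in the Astro type, and they were Vcan and Tnc. In Astro, 6 of the 9 members passed the filter (not Acan, Hapln2 and Hapln4), and the background was high in NR: 7.11% of genes were called in NR, 0.736% in DR and 4.79% over both rearings.

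Vcan in Astro stood at 26.7 and 25.6 CPM in the NR GR-Con female and male, and at 88.9 and 70.4 CPM in the NR GR-KO female and male. In DR it stood at 51.2 and 48.4 CPM in the GR-Con and at 118 and 126 CPM in the GR-KO female and male. Every GR-KO library was above every GR-Con library, in NR, in DR and over all 8. The log2 fold change was 1.55 (SE 0.17, edgeR adjusted p = 2.1e-16) in NR, 1.32 (SE 0.20, edgeR adjusted p = 2.7e-08) in DR and 1.42 (SE 0.13, edgeR adjusted p = 7.4e-26) over both. The call in DR depended on the test: the adjusted p was 0.0747 by edgeR's quasi-likelihood test, and it was 0.0672 and 0.147 without the DR GR-KO female or male. The calls in NR and over both rearings passed under every alternative run.

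Tnc in Astro stood at 83.0 and 66.4 CPM in the NR GR-Con female and male and at 217 and 225 CPM in the NR GR-KO female and male. In DR GR-KO it stood at 271 CPM in the female and 328 CPM in the male, and in DR GR-Con the libraries differed, with 77.3 CPM in the female and 192 CPM in the male. As for Vcan, no GR-Con library reached a GR-KO library. The log2 fold change was 1.50 (SE 0.16, edgeR adjusted p = 8.4e-18) in NR and 1.33 (SE 0.25, edgeR adjusted p = 1.1e-05) over both rearings. In DR it was 1.16 (SE 0.42, edgeR adjusted p = 0.29), and without the DR GR-Con male it was 2.00 (edgeR adjusted p = 1.3e-42, with the lone control assumed to vary like the others). Without the DR GR-Con female it was 0.64 (edgeR adjusted p = 0.0046, under the same assumption), so its size rested on which control was used. The female DR GR-Con library was also the lowest of all in Astro for Hapln1, Tnr, Ncan and Bcan.

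Neither gene showed a genotype difference that itself differed between rearings: the interaction (log2 fold change in NR minus the one in DR) was 0.22 (SE 0.25) for Vcan and 0.33 (SE 0.50) for Tnc, with an edgeR adjusted p of 1.00 for both. Across all types, 0 of 100 pairs were called for the interaction by the likelihood ratio test, against 0.181% of all tests, and the unadjusted p was under 0.05 for 12, a share of 12% against 5.40% of all tests. Neither of the other tools called a pair: 15 pairs in the quasi-likelihood test and 11 in DESeq2 had an unadjusted p under 0.05. With a sex term, however, 3 pairs were called (Vcan in L5IT and Vip and Bcan in Pvalb, none in Astro), and leaving out single libraries gave 0 to 3.

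The other 4 members measured in Astro were not called. Hapln1 stood at 115 to 139 CPM in GR-KO and at 60.4 to 99.6 CPM in GR-Con libraries, and Ncan at 120 to 149 against 86.4 to 113 CPM, in both cases without overlap over the 8 libraries. The log2 fold changes over both rearings were 0.51 (SE 0.17, edgeR adjusted p = 0.051) for Hapln1 and 0.36 (SE 0.12, edgeR adjusted p = 0.059) for Ncan, and both were called by DESeq2 (adjusted p = 0.039 and 0.047). Bcan, the astrocytic lectican, showed 0.05 (SE 0.11) and Tnr 0.38 (SE 0.23), with overlapping libraries. The median log2 fold change of the 6 members was 0.45 over both rearings, and that of all genes tested was 0.00.

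**Figure D3:**
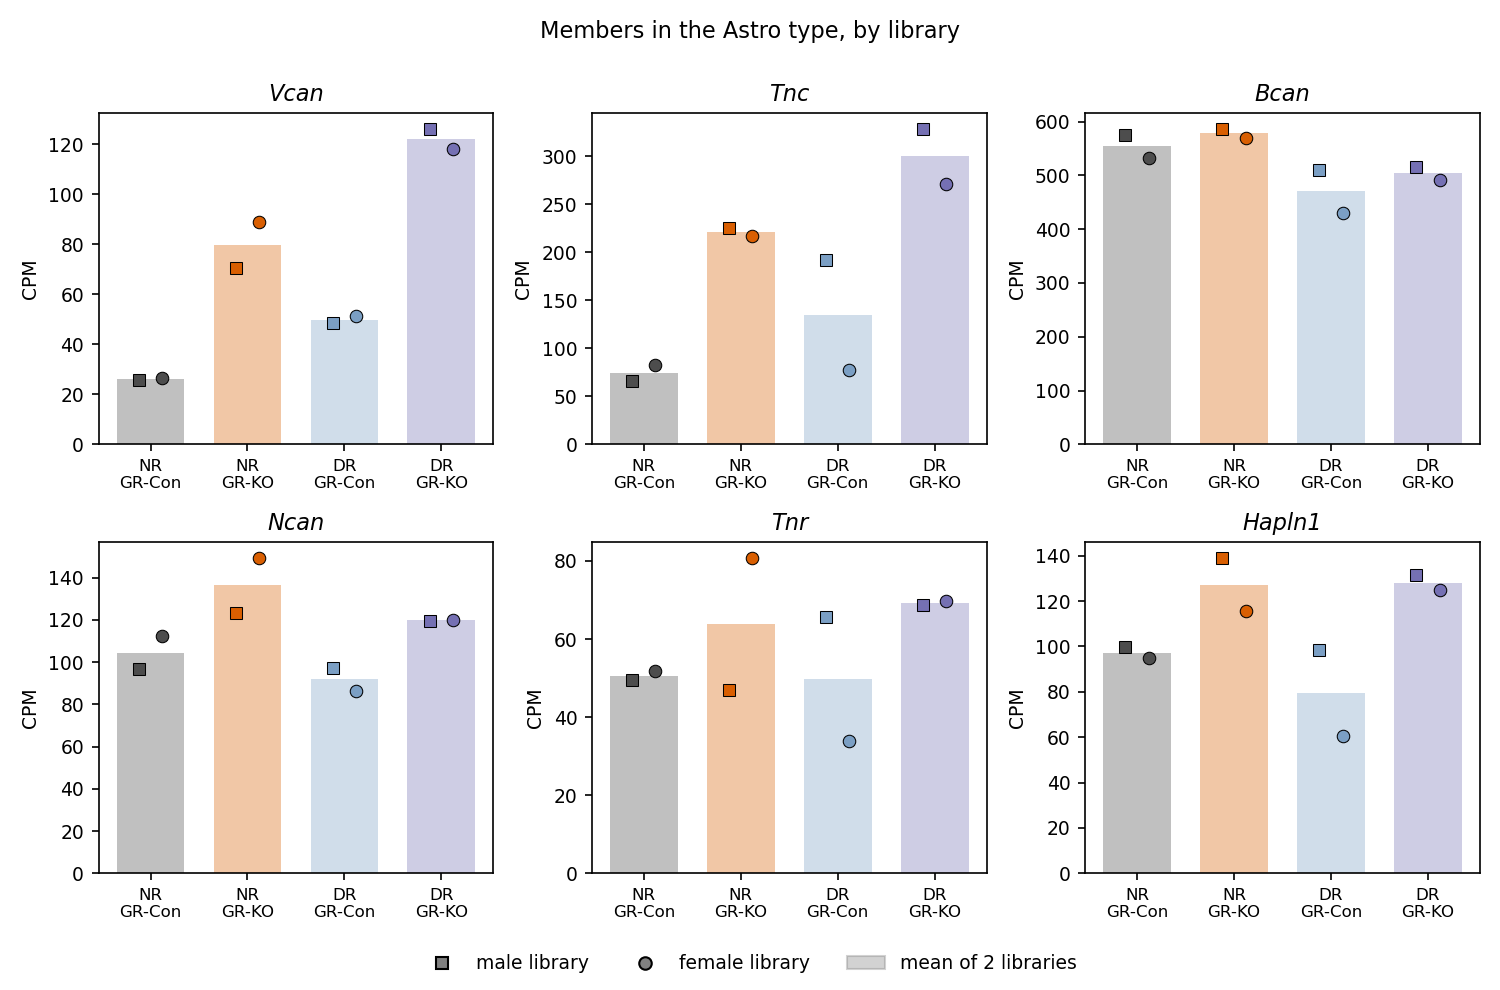
CPM (vertical axes) of the 6 members that passed the filter in Astro, by group (horizontal axes), with 1 point per library (square, male; circle, female) and bars at the mean of 2 libraries. Vcan and Tnc are higher in each GR-KO library than in each GR-Con library, Vcan is higher in DR than in NR within each genotype, and Tnc is apart in the 2 DR GR-Con libraries (77.3 and 192 CPM).

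More Astro nuclei held a Vcan UMI in GR-KO. At 2000 UMIs per nucleus, a Vcan UMI was found in 4.55% and 4.66% of Astro nuclei in the NR GR-Con female and male, in 13.2% and 10.4% in NR GR-KO, in 7.55% and 8.27% in DR GR-Con and in 16.4% and 17.9% in DR GR-KO. At 1 common rate per library, the shares would be 5.16% and 4.97% in NR GR-Con and 15.5% and 11.7% in NR GR-KO. In DR they would be 8.39% and 9.68% in GR-Con and 19.9% and 21.5% in GR-KO. The shares thus moved with the level and do not show that more nuclei transcribed Vcan. Nuclei with 5 or more Vcan UMIs made up at most 0.102% in any library. An EGFP UMI, from the vector, was seen in 4.22% to 11.98% of Astro nuclei. In GR-KO libraries, Vcan was at 51.6 to 123 CPM in nuclei with an EGFP UMI and at 72.9 to 127 CPM in those without one, with 32 to 88 Vcan UMIs in the former, so the level was not restricted to nuclei seen with a vector transcript. Tnc was at 200 to 322 CPM with and 208 to 324 CPM without an EGFP UMI in the same libraries. Leaving out all nuclei with a vector UMI (4.18% to 15.2% of Astro nuclei) kept 9 of 9 Astro calls of members. Nuclei that carried a vector without a UMI seen could not be left out, so this does not show that the calls are independent of the vector.

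Markers of other cell types moved with genotype in Astro, and their part in the differences was not tested. The summed CPM of 5 OPC markers (5 of 5 with UMIs) in Astro was 19.1 to 20.2 in NR GR-KO against 15.5 to 15.8 in NR GR-Con, and 13.1 to 15.2 in DR GR-KO against 10.5 to 16.1 in DR GR-Con. For 3 excitatory markers it was 59.1 to 66.0 in NR GR-KO and 39.3 to 41.0 in NR GR-Con, for 3 inhibitory markers 23.0 to 25.2 against 15.5 to 15.7, and for 4 oligodendrocyte markers (Mag, Mobp, Mog and Opalin) 30.2 to 38.4 against 26.4 to 28.1. In DR these sums were 41.7 to 43.8 against 35.5 to 57.4, 11.1 to 12.6 against 11.5 to 13.5 and 21.1 to 21.3 against 13.4 to 20.5. The ratio of Vcan to Tnr was 0.19 to 0.23 in OPC nuclei. In Astro this ratio was 1.10 to 1.84 in GR-KO and 0.52 to 1.52 in GR-Con libraries, with overlap. Other types that hold Vcan were not set beside it, and the source of the Vcan RNA in Astro was not tested. With nuclei holding an OPC marker UMI left out (5.35% to 19.3% of Astro nuclei), the log2 fold change of Vcan in NR was 1.57.

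Outside astrocytes, the genotype comparison called 1 pair, Bcan in L5PT in NR. It stood at 14.5 and 14.7 CPM in the NR GR-Con female and male, at 2.96 and 7.25 CPM in the NR GR-KO female and male, and fell by 1.26 on the log2 scale (SE 0.25, edgeR adjusted p = 0.00031). The GR-KO female library held 59 L5PT nuclei with 8 Bcan UMIs, and the call did not pass in the quasi-likelihood test (adjusted p = 0.31) or in DESeq2 (0.13). With single libraries left out, the log2 fold change ranged from −2.26 to −1.04. With a sex term, Vcan in L5PT and Pvalb and Bcan in Oligo were called in NR too, and Vcan in Vip in DR. Without it, no other neuronal, OPC or Oligo pair was called for genotype, among them Acan, Hapln1, Hapln4 and Tnr in Pvalb, whose log2 fold changes over both rearings were 0.02 (SE 0.17), −0.06 (SE 0.16), −0.03 (SE 0.17) and 0.02 (SE 0.07). For Acan and Hapln4 these values average opposite directions, none of them called. Acan was at 14.0 to 15.6 CPM in GR-KO against 18.4 to 19.2 CPM in GR-Con in NR, and at 14.6 to 18.5 against 11.1 to 14.1 CPM in DR. Hapln4 was at 7.84 to 9.54 against 10.4 to 11.5 CPM in NR, and at 8.60 to 9.65 against 6.72 to 7.95 CPM in DR.

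The second comparison asked what dark rearing changed, DR against NR. In GR-Con 10 of 95 pairs were called (5 higher, 5 lower in DR), in GR-KO 13 of 100 (6 higher, 7 lower) and over both genotypes 7 of 100 (5 higher, 2 lower). Over all genes and types, 2.25%, 3.66% and 5.24% of tests were called in these comparisons, against 10.5%, 13% and 7% of the member pairs. The members over both genotypes were thus close to the background. Each rearing call within a single genotype was lost in at least 1 of the 4 cases in which 1 library was left out. The fold changes of all pairs are given in the heat map of both comparisons.

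**Figure D4:**
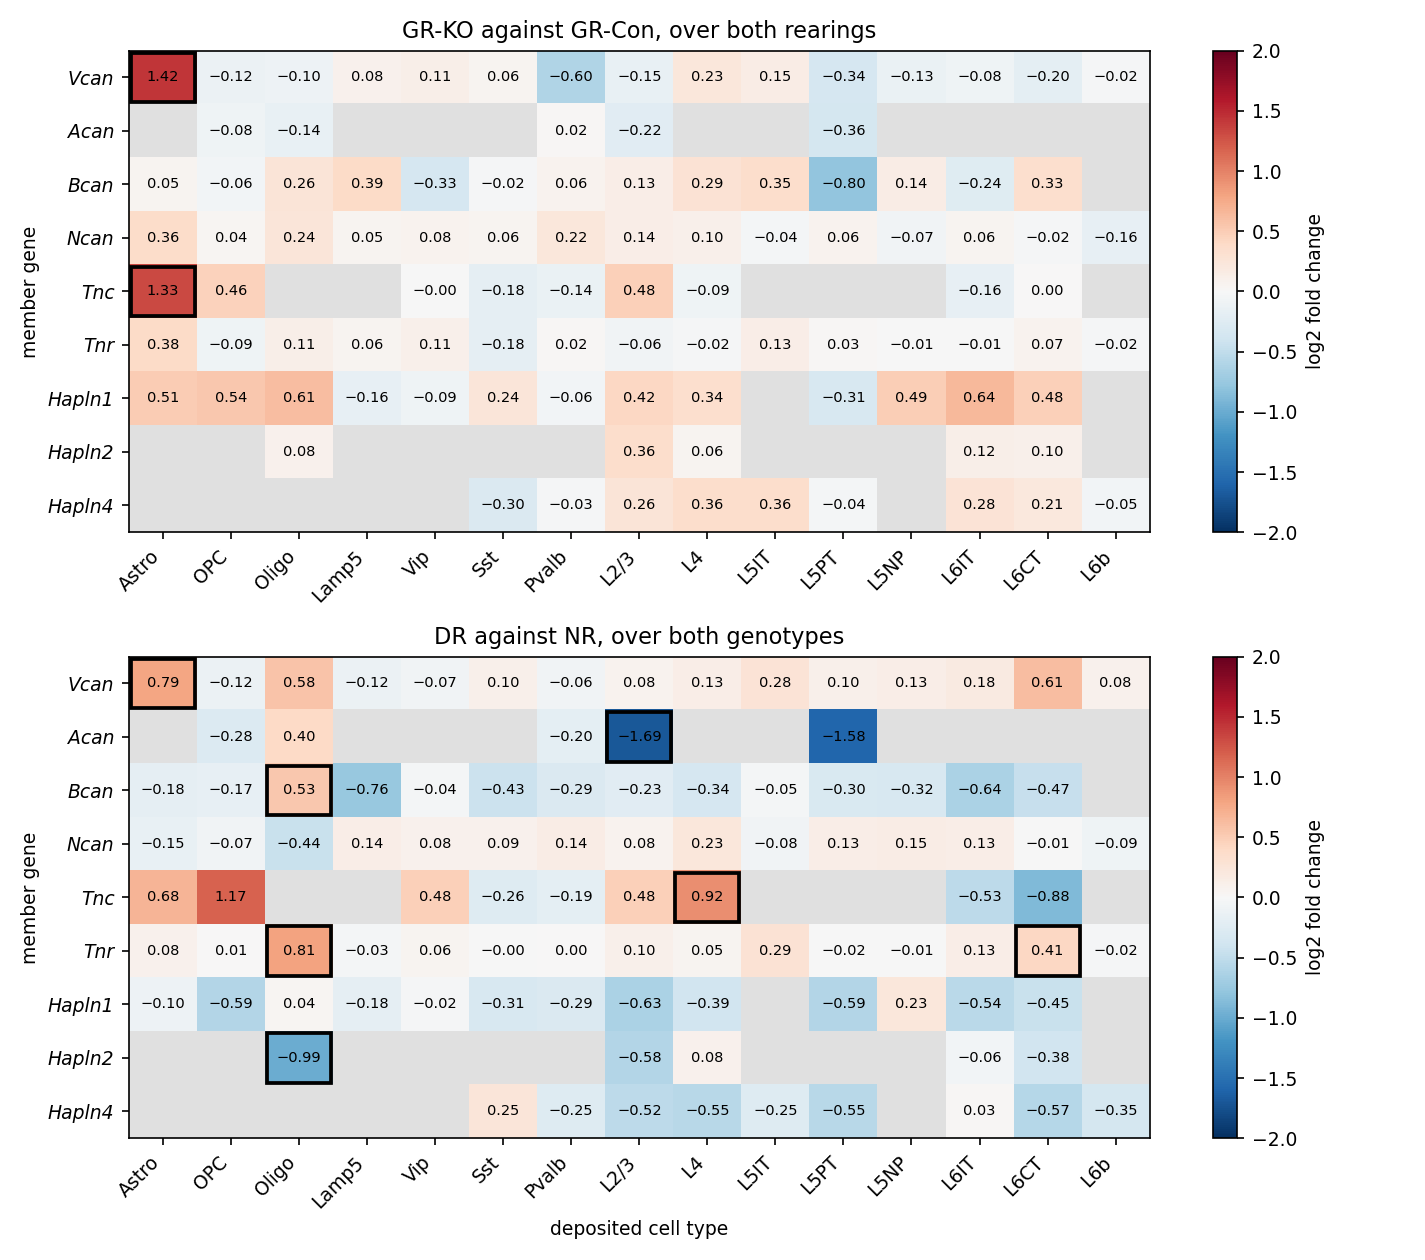
Log2 fold change of each member (rows) in each cell type (columns) for genotype (top, GR-KO against GR-Con over both rearings) and rearing (bottom, DR against NR over both genotypes), with black frames around pairs with an edgeR adjusted p under 0.05 and grey where the pair did not pass the filter. The 2 frames of the upper panel are Vcan and Tnc in Astro, and 3 of the 7 in the lower panel are in Oligo.

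In Astro, Vcan rose with dark rearing within each genotype. The log2 fold change was 0.91 (SE 0.22, edgeR adjusted p = 0.021) in GR-Con, 0.69 (SE 0.15, edgeR adjusted p = 0.0007) in GR-KO and 0.79 (SE 0.13, edgeR adjusted p = 1.4e-06) over both genotypes. Few genes were called there in GR-Con, 0.147% of those tested, against 2.85% in GR-KO and 0.935% over both. The call in GR-Con was lost in the quasi-likelihood test (adjusted p = 0.87) and in DESeq2 (0.14), whereas that over both genotypes passed under every alternative. Tnc rose in GR-KO by 0.51 on the log2 scale (SE 0.14, edgeR adjusted p = 0.016), and leaving out single libraries ended this call in 3 of 4 cases. The lowest Vcan level was thus in NR GR-Con and the highest in DR GR-KO, with the other groups between them.

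In Oligo, the members changed with rearing in both directions, 3 of 6 in GR-Con and 3 of 7 in GR-KO and over both genotypes, where 0.615%, 3.79% and 3.82% of all genes were called. Tnr stood at 1612 and 1894 CPM in the NR GR-Con female and male, at 2314 and 1432 CPM in NR GR-KO, at 3083 and 2933 CPM in DR GR-Con and at 3490 and 3186 CPM in DR GR-KO. All 4 DR libraries were above all 4 NR libraries, with a log2 fold change of 0.81 (SE 0.15, edgeR adjusted p = 3.4e-05) over both genotypes, 0.75 (SE 0.20, edgeR adjusted p = 0.037) in GR-Con and 0.86 (SE 0.24, edgeR adjusted p = 0.018) in GR-KO. Hapln2 went the other way, with 106 and 117 CPM in the NR GR-Con female and male, 107 and 93.2 CPM in NR GR-KO, 30.1 and 62.9 CPM in DR GR-Con and 59.7 and 60.4 CPM in DR GR-KO. Again the rearings did not overlap, and Hapln2 fell by 0.99 on the log2 scale (SE 0.21, edgeR adjusted p = 0.00036). Both calls over both genotypes passed under every alternative. The calls within a genotype did not. For Tnr in GR-Con the adjusted p was 0.24 in the quasi-likelihood test, with 1 of 4 fits with a library left out called. For Tnr in GR-KO the adjusted p was 0.082 in the quasi-likelihood test and 0.31 in DESeq2, and its value ranged from 0.56 to 1.24 when single libraries were left out, with 1 of 4 such fits called.

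Bcan in Oligo stood at 57.9 and 64.0 CPM in NR GR-Con, 101 and 81.2 CPM in NR GR-KO, 118 and 100.4 CPM in DR GR-Con and 110.2 and 104 CPM in DR GR-KO (female, then male). It rose by 0.80 on the log2 scale in GR-Con (SE 0.19, edgeR adjusted p = 0.0074) and by 0.53 over both genotypes (SE 0.14, edgeR adjusted p = 0.008), where 1 NR GR-KO library lay within the range of the DR libraries. Neither call passed in the quasi-likelihood test (adjusted p = 0.22 and 0.060), and 2 of 4 and 5 of 8 fits with a library left out kept it. Vcan rose in GR-KO by 0.79 on the log2 scale (SE 0.25, edgeR adjusted p = 0.042), but the adjusted p was 0.15 in the quasi-likelihood test and 0.71 in DESeq2, and the value ranged from 0.43 to 1.29 when single libraries were left out. Over both genotypes Vcan showed 0.58 (SE 0.19, edgeR adjusted p = 0.065).

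The split of the Oligo nuclei by Tnr moved in the same direction. Because the classes are made from Tnr UMIs, their shares are another view of the Tnr level and not a separate observation. Nuclei with 5 or more Tnr UMIs of 2000 made up 16.7% to 23.9% of Oligo nuclei in the 4 NR libraries and 27.7% to 33.4% in the 4 DR libraries. Within these nuclei, Vcan (593 to 1116 CPM in NR, 756 to 827 CPM in DR) and Bcan (298 to 474 and 354 to 404 CPM) overlapped between rearings, and Tnr overlapped as well (9416 to 11172 and 11039 to 11935 CPM). Within the nuclei without a Tnr UMI, Hapln2 was at 109 to 141 CPM in NR and at 40.4 to 85.9 CPM in DR, without overlap, so that its lower level was also present there. These values have no test, since the classes were made with the data in view.

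Markers moved beside these changes in the whole Oligo type, and their part was not tested. Gpr17 stood at 28.2 to 48.8 CPM in NR and 55.2 to 61.2 CPM in DR, with a log2 fold change of 0.53 (SE 0.16, edgeR adjusted p = 0.038) over both genotypes. Opalin, a protein of myelinating oligodendrocytes, fell by 0.34 on the log2 scale (SE 0.11, edgeR adjusted p = 0.045). Mog, a protein of the myelin surface, was at 1105 to 1339 CPM in NR and 813 to 1163 CPM in DR (edgeR adjusted p = 0.26). The summed level of 4 oligodendrocyte markers (Mag, Mobp, Mog and Opalin) was 4556 to 5671 CPM in NR and 4638 to 4913 CPM in DR, with overlap, and that of 5 OPC markers was 423 to 475 CPM and 382 to 434 CPM.

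**Figure D5:**
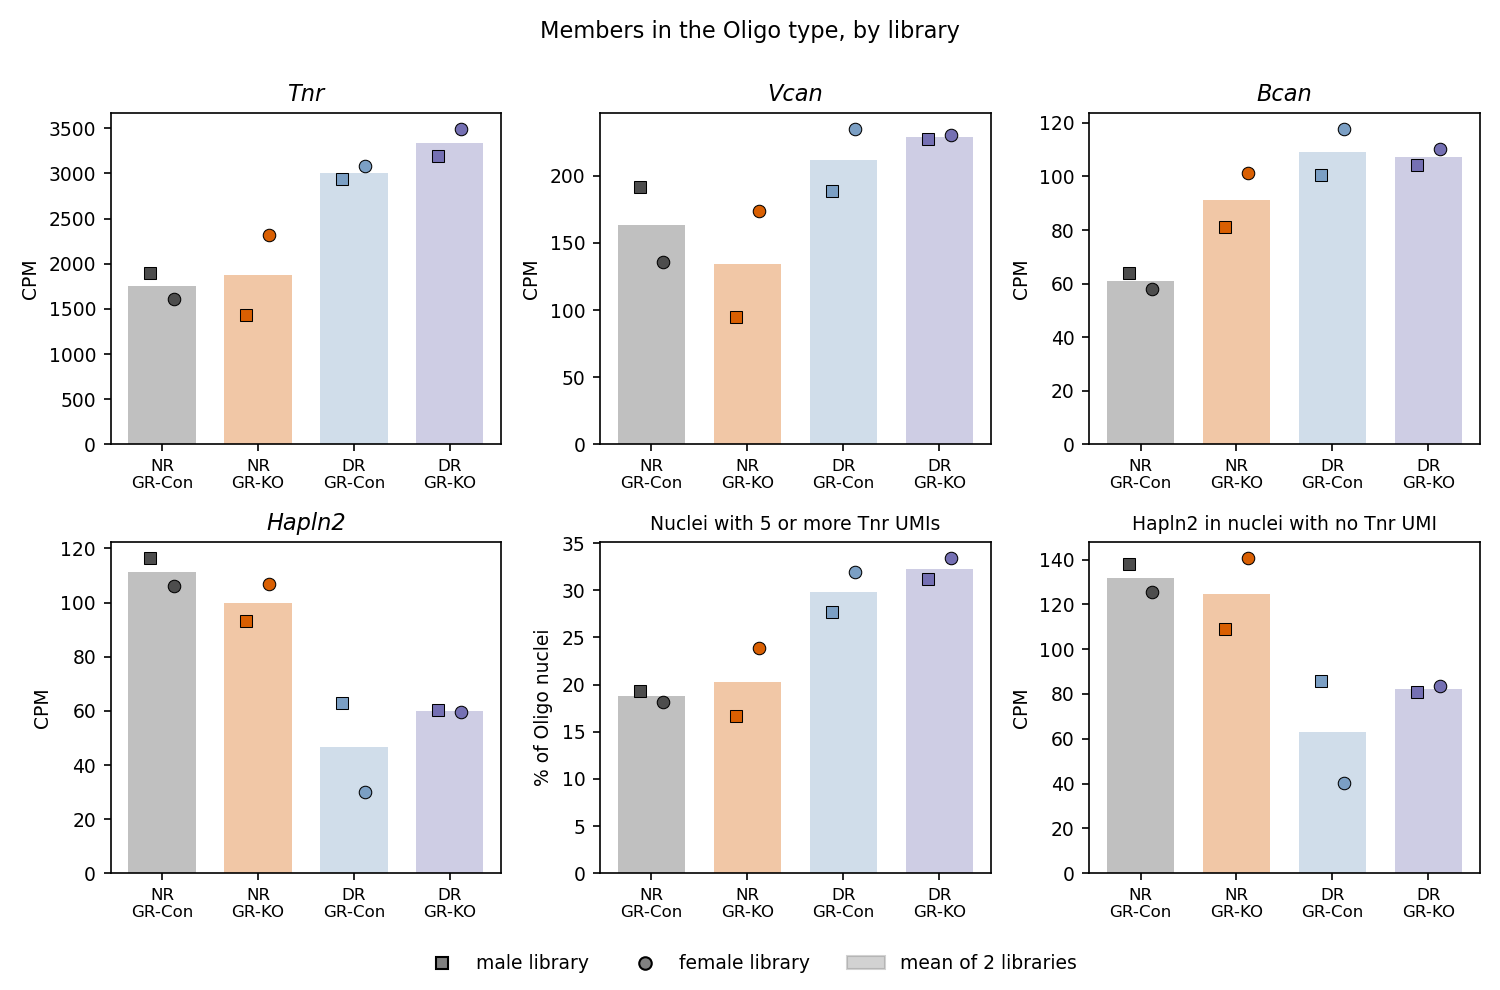
Tnr, Vcan, Bcan and Hapln2 in the Oligo type (CPM), the share of Oligo nuclei with 5 or more Tnr UMIs at 2000 UMIs per nucleus (%), and Hapln2 in nuclei without a Tnr UMI (CPM), by group, with 1 point per library (square, male; circle, female) and bars at the mean of 2 libraries. In 4 of 4 DR libraries Tnr and the share of Tnr nuclei are above, and Hapln2 below, all NR libraries. The share of Tnr nuclei is taken from the same Tnr UMIs as the level.

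In OPC, where Vcan, Acan and Tnr are highest, no member was called in any of the 7 comparisons. Of all OPC genes tested, 0.0917% to 2.07% were called in them, so the lack of calls among few members does not show that their levels were equal. Over both genotypes the rearing log2 fold change was −0.12 (SE 0.10) for Vcan, 0.02 (SE 0.11) for Tnr, −0.17 (SE 0.09) for Bcan and −0.28 (SE 0.17) for Acan. Acan in OPC was at 37.3 and 58.2 CPM in NR GR-Con and at 33.8 and 30.8 CPM in DR GR-Con, without overlap but with an edgeR adjusted p of 0.60.

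Pvalb interneurons, the neurons that nets surround, had 1 call among 8 members tested, in GR-Con, where 1.48% of all genes were called. Bcan there stood at 69.2 and 68.8 CPM in the NR GR-Con female and male and at 46.3 and 45.5 CPM in DR GR-Con, and it fell by 0.59 on the log2 scale (SE 0.12, edgeR adjusted p = 0.00024). The call was also made by the quasi-likelihood test (adjusted p = 0.037) and DESeq2 (0.0057). In GR-KO, Bcan stood at 60.1 and 58.2 CPM in NR and at 60.9 and 56.7 CPM in DR, a log2 fold change of 0.02 (SE 0.13). The interaction for Bcan was −0.60 (SE 0.16, edgeR adjusted p = 0.10), and it was called when a sex term was added. Leaving out single libraries kept the call in GR-Con in 2 of 4 cases.

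Acan and Hapln4, net components too, were lower in both DR GR-Con than in both NR GR-Con libraries of Pvalb without passing the test. With so few libraries per group, such a separation does not by itself show a change. Acan was at 19.2 and 18.4 CPM in NR GR-Con, 11.1 and 14.1 CPM in DR GR-Con, 15.6 and 14.0 CPM in NR GR-KO and 18.5 and 14.6 CPM in DR GR-KO (female, then male). Its log2 fold change with dark rearing was −0.57 (SE 0.18, edgeR adjusted p = 0.068) in GR-Con and 0.20 (SE 0.18, edgeR adjusted p = 0.75) in GR-KO, and that of Hapln4 was −0.57 (SE 0.20, edgeR adjusted p = 0.15) and 0.11 (SE 0.22, edgeR adjusted p = 0.92). For the interaction, the edgeR adjusted p of Acan was 0.32. Tnr, by contrast, was level in all groups, with log2 fold changes of −0.02 (SE 0.12) and 0.03 (SE 0.12). The Pvalb gene itself moved in the same groups, with 51.4 to 56.0 CPM in NR GR-Con and 33.9 to 38.4 CPM in DR GR-Con (log2 fold change −0.57, SE 0.13, edgeR adjusted p = 0.0017) and 50.0 to 53.4 CPM in GR-KO of either rearing, and its part in the Bcan difference was not tested.

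In excitatory neurons, the best supported change was that of Tnr in L6CT, the corticothalamic neurons of layer 6. It stood at 460 and 486 CPM in the NR GR-Con female and male, 491 and 561 CPM in NR GR-KO, 623 and 700.4 CPM in DR GR-Con and 605 and 711 CPM in DR GR-KO. The rearings did not overlap, and the log2 fold change over both genotypes was 0.41 (SE 0.11, edgeR adjusted p = 0.0029). The call passed under every alternative, while 12.5% of all genes were called in L6CT in the same comparison. Within each genotype it was not called, and in GR-KO, where 6.94% of genes were called in L6CT, 3 other members were: Vcan was higher by 0.73 (SE 0.23), Bcan lower by a log2 change of −0.81 (SE 0.25) and Tnc by one of −1.58 (SE 0.51), the last from levels under 1 CPM. None of these 3 was called by the quasi-likelihood test (adjusted p = 0.12 for Vcan, 0.11 for Bcan and 0.11 for Tnc). DESeq2 called Vcan (adjusted p = 0.025) and not Bcan (0.20), and gave no adjusted p for Tnc. In L2/3 in GR-Con, where 7.45% of genes were called, 3 of 9 members were called. Acan fell by 2.52 on the log2 scale (SE 0.70, edgeR adjusted p = 0.0076), from 0.31 and 0.94 CPM in NR to 0.16 and 0.06 CPM in DR, based on 4 to 61 UMIs per library. Its adjusted p was 0.14 in the quasi-likelihood test and 0.043 in DESeq2. With single libraries left out, its change ranged from −3.38 to −1.53. Hapln4 fell by 0.87 on the log2 scale (SE 0.27) and Tnc rose by 0.95 (SE 0.33), and neither was called by the quasi-likelihood test or DESeq2.

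Calls for rearing in the remaining types were scattered. In L4, Tnc stood at 1.28 to 2.29 CPM in NR and 1.95 to 4.29 CPM in DR, with a log2 fold change of 0.92 over both genotypes. In Lamp5, where Hapln1 is highest, it was at 169 and 192 CPM in NR GR-KO and at 129 and 105 CPM in DR GR-KO, and it fell by 0.57 on the log2 scale (SE 0.16, edgeR adjusted p = 0.032). In GR-Con the Lamp5 libraries stood at 158 and 157 CPM in NR and 162 and 184 CPM in DR, in the other direction. Vcan in L5IT rose in GR-Con by 1.14 on the log2 scale, where 6.14% of all genes were called. Acan in L5PT fell by 2.22 in GR-Con, and in GR-KO Bcan in L6IT fell by 1.11 and Hapln1 in L2/3 by 0.97. Tnr in VLMC fell by 1.68 in GR-KO, where 19.9% of all genes were called and the libraries held 20 to 65 nuclei. Acan in L2/3 fell by 1.69 over both genotypes, where 15.9% of all genes were called. Leaving out single libraries ended each of these calls in at least 1 case, and that of Hapln1 in Lamp5 in 4 of 4. Of the 36 calls in all comparisons, DESeq2 also made 23 and the quasi-likelihood test 12.

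Genes that make, cut or bind the matrix were counted as 4 lists. Of 9 genes that make, degrade or bind hyaluronan, 8 were among the features. In Astro, 1 of 6 tested was called for genotype in NR, Cd44, the cell surface receptor of hyaluronan, where 7.11% of all Astro genes were called. It stood at 10.3 and 10.96 CPM in NR GR-Con and 16.1 and 22.9 CPM in NR GR-KO, and over both rearings it rose by 0.83 on the log2 scale (SE 0.16, edgeR adjusted p = 4.0e-05). The call in NR was not made by the quasi-likelihood test (adjusted p = 0.056) or DESeq2 (0.082), whereas both made the call over both rearings. For rearing, 0 of 7 were called in Astro over both genotypes by edgeR's likelihood ratio test, whereas in L6CT 3 of 7 rose: Cd44 by 1.73, Cemip, which degrades hyaluronan, by 1.04 and the hyaluronidase Hyal1 by 0.83 on the log2 scale, while 12.5% of all genes were called in L6CT. Hyal1 was not called there by the quasi-likelihood test (adjusted p = 0.065) or DESeq2 (0.076).

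Of 22 genes of chondroitin sulfate synthesis, the enzymes that build the glycan chains of lecticans, 1 of 19 was called for genotype in Astro in NR (Chsy3, log2 fold change 0.51, SE 0.17, edgeR adjusted p = 0.034), against 7.11% of all Astro genes. Chsy3 was not called by the quasi-likelihood test (adjusted p = 0.071) or by DESeq2 (0.084). For rearing over both genotypes, L2/3 had the most, 4 of 20, all higher in DR, among them Chst11 (0.54), Ust (0.36) and Xylt1 (0.27), while 15.9% of all genes were called in L2/3. In OPC, Xylt1 rose by 0.51 (SE 0.09, edgeR adjusted p = 6.9e-06) and Chst11 by 0.35 (SE 0.10, edgeR adjusted p = 0.021).

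Proteases that cut lecticans differed by genotype in Astro: of 4 tested, 2 rose and 1 fell in NR, where 7.11% of all Astro genes were called. Adamts5, an aggrecanase, stood at 22.6 and 19.6 CPM in NR GR-Con, 49.2 and 35.8 CPM in NR GR-KO, 13.1 and 13.7 CPM in DR GR-Con and 43.6 and 48.5 CPM in DR GR-KO (female, then male). Its log2 fold change was 0.96 (SE 0.21, edgeR adjusted p = 0.00021) in NR, 1.796 (SE 0.23, edgeR adjusted p = 6.7e-11) in DR and 1.36 (SE 0.20, edgeR adjusted p = 2.7e-09) over both. The quasi-likelihood test did not make the call in DR (adjusted p = 0.075). Adamts9, which cuts versican and aggrecan, rose by 0.71 over both rearings (SE 0.22, edgeR adjusted p = 0.029), a call that the quasi-likelihood test did not make (adjusted p = 0.12). In DR GR-Con its libraries were apart, at 64.7 and 137 CPM. Adamts20 fell in NR by 1.26 on the log2 scale (SE 0.14, edgeR adjusted p = 7.3e-16), from 62.3 and 64.4 CPM to 25.8 and 29.6 CPM, but in DR GR-Con it stood at 18.1 CPM in the female and 80.0 CPM in the male.

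Of 16 receptors and partners of lecticans and tenascins, 13 were tested in Astro and 2 fell with genotype in NR and over both rearings, where 7.11% and 4.79% of all Astro genes were called. Cntn1, contactin-1, a neuronal adhesion protein that binds tenascin-R, stood at 248 and 210.2 CPM in NR GR-Con, 87.3 and 73.5 CPM in NR GR-KO, 159 and 249 CPM in DR GR-Con and 82.8 and 57.7 CPM in DR GR-KO. It fell by 1.55 on the log2 scale over both rearings (SE 0.18, edgeR adjusted p = 3.8e-14). Fbln1, fibulin-1, which binds versican, fell by 1.14 in NR (SE 0.22) and by 0.87 over both rearings (SE 0.24, edgeR adjusted p = 0.0096). The quasi-likelihood test did not make its call over both rearings (adjusted p = 0.080). The median log2 fold change of the 13 was 0.00 over both rearings, as was that of all genes tested. For rearing, 4 of 16 were called in L2/3 over both genotypes, against 15.9% of all genes: Rtn4rl2 (0.57) and Tnxb (0.85) rose, and Cspg4 (−1.16) and Cspg5 (−0.50) fell. Tnxb was not called by the quasi-likelihood test (adjusted p = 0.063).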

How the data were processed

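snRNA-seq of sorted V1 nuclei was performed with the 10X 3′ v4 kit. The authors aligned reads with Cell Ranger 8.0.1 to mm10 with the eGFP sequence added, removed predicted doublets with DoubletFinder and nuclei with very few or very many counts, and clustered with Seurat 5.3.0. The deposited matrix holds UMI counts without normalization, and cell types were taken from the deposited annotation. The members, lists and rules were chosen with earlier results of these data known.

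UMIs were summed per library and cell type and tested by glmLRT (two-sided) of edgeR 4.0.16, run in R 4.3.3, after filterByExpr and TMM scaling, where every library of the fit held at least 10 nuclei of the type. There were 7 comparisons: genotype and rearing, each in both arms and over both with the other factor as a term, and their interaction. DESeq2 1.42.0 and edgeR's quasi-likelihood test were alternatives, beside those in the closing section. On simulated data with known changes in Astro and Pvalb, the likelihood ratio test made a larger share of false calls than its threshold allows, and a larger share than DESeq2 or the quasi-likelihood test, so calls made by it alone are the least certain. The labels call each library 1 animal, and p-values measure the spread between n = 2 such libraries per group. Levels were compared between cell types on log2(CPM + 1). Genes named were the 9 members, their 3 most alike genes and up to 3 called genes of a list in each direction. A marker of the oligodendrocyte list is not reported here, and its list was summed without it.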

Additional observations from a re-analysis of the deposited data

How the results depend on the processing

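Counts of member and cell type pairs called moved with the test. The shares of all genes called under the same alternatives were not set beside them, so these counts describe the settings and are not a result about the members. In comparisons of 2 groups, the sex term is a further coefficient fitted to few libraries. With a sex term they were 8 for genotype in NR, 3 in DR, 4 over both rearings and 3 for the interaction. With edgeR's quasi-likelihood test they were 0 for genotype in DR, 1 for rearing in GR-Con, 3 in GR-KO and 4 over both genotypes. DESeq2 gave 4 for genotype over both rearings, 6 for rearing in GR-Con and 8 in GR-KO, RLE factors gave 4 for genotype over both rearings, and 1 fit of all 8 libraries gave 4 for rearing in GR-KO. When single libraries were left out, the counts ranged from 2 to 8 for genotype in NR, 0 to 7 in DR and 2 to 4 over both rearings. For rearing they ranged from 1 to 15 in GR-Con, 1 to 14 in GR-KO and 6 to 13 over both genotypes, and for the interaction from 0 to 3. In the comparisons of 2 groups this leaves 1 library in an arm, which is assumed to vary like the others. Genotype in NR had 8 calls without the NR GR-KO male and 7 without the female. Genotype in DR had 7 without the DR GR-Con male, 2 without the DR GR-Con female and 0 without either DR GR-KO library, and over both rearings it had 4 without the DR GR-Con male. Rearing in GR-Con had 1 call without the NR GR-Con male and 2 without the female, in GR-KO 5 without the DR GR-KO male and 1 without the female, and over both genotypes 13 without the DR GR-Con female. The interaction had 1 and 2 calls without the NR GR-KO male or female and 2 and 3 without the DR GR-Con male or female. The cause of these moves was not tested. With Spearman's rho, 0 of the 27 most alike genes remained.

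Of the single calls taken over all alternatives, 312 were still made, 128 were not and 0 were reversed. RLE factors and the sex term kept 36 of 36, DESeq2 kept 23 and the quasi-likelihood test 12. With L5PT left out, a choice made after seeing the data, genotype in NR had 2 calls. No paired analysis was possible because the library names carry the sex and not the replicate numbers of the labels. Libraries were matched across groups by sex instead, in the fits with a sex term above. With 2 libraries per group, small differences, and genes at a few UMIs per library, are beyond what these data can resolve.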
